A study of Homo sapiens with 72 samples.

Results

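The cytosolic HSP70 and HSP110 chaperones were followed through 11 comparison tables made in human cell lines with altered levels of G3BP1, a stress granule protein that binds RNA. The 10 gene symbols HSPA1A, HSPA1B, HSPA1L, HSPA2, HSPA6, HSPA8, HSPA14, HSPA4, HSPA4L and HSPH1 were looked up in every table. They named 11 of the 61541 Ensembl gene IDs listed per table, because the authors' tables give the symbol HSPA14 to both ENSG00000187522 and ENSG00000284024. A gene name table calls the second of these MSANTD7, and it is given here under that name, apart from HSPA14. Counts of members below are out of these 11 entries, or of those with a test.

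HSP70 proteins bind short stretches of unfolded protein and release them in a cycle driven by ATP. J-domain proteins such as DNAJB1 start ATP hydrolysis, and nucleotide exchange factors, among them the HSP110 proteins HSPH1, HSPA4 and HSPA4L, open the nucleotide site again. HSPA8 is the constitutive form, HSPA1A and HSPA1B are the classical stress-induced forms, and HSPA6 is a strictly inducible form of human cells. HSPA1L and HSPA2 are best known from the testis, and HSPA14 works with ribosomes. Induction runs through HSF1, the main heat shock transcription factor, which binds repeated units of the heat shock element. Sodium arsenite is a standard inducer of both this response and stress granules.

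Tables of 24 libraries in 11 groups were used. U2OS cells, a bone osteosarcoma line, were sequenced in a first experiment of 6 libraries and a second of 12, with 2 libraries per group. The first held wild-type cells, cells with a G3BP1/2 knockout, and knockout cells 24 h after Lipofectamine transfection of a G3BP1 transgene, all untreated. In the second experiment every cell carried the G3BP1/2 knockout: cells without a transgene, cells 24 h after transfection of a WT G3BP1 transgene (wild-type rescue), and cells 24 h after transfection of a G3BP1 transgene lacking its NTF2 domain (NTF2-deletion rescue), each untreated or with 200 uM sodium arsenite for 2 h. FlpIn 293 Trex cells, an embryonic kidney line that stably expresses FLAG-G3BP1, were induced with 1 ug/mL tetracycline for 24 h, and 3 immunoprecipitated (IP) and 3 input libraries were made for RNA immunoprecipitation (RIP). Cells without a transgene were untransfected and no mock-transfected group was used here, so G3BP1 and transfection cannot be told apart in any comparison of rescued with knockout cells. Whether the knockout cells are 1 clone, and what promoter drives the transgenes, is not given in the sources used here.

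Whole reads per library were recovered from the tables' base means for 99.95% of genes in the first U2OS experiment and 99.99% in the second. They summed to 33646443 to 45598693 gene reads per library in the first and 10294172 to 25182261 in the second, and the RIP libraries averaged 12170926 normalised reads. In the authors' deposited tables, G3BP1 itself had a log2 fold change of -0.56 in knockout over wild-type cells, so its transcripts were still counted. In the same experiment it had -0.69 in knockout and -0.15 in wild type over G3BP1 rescue. In the second experiment, untreated, it was higher than in knockout by 7.31 in wild-type and 7.75 in NTF2-deletion rescue. Whether these differences in G3BP1 level bear on the comparisons below was not tested. Of 10 osteoblast-lineage markers, 5 had base means of at least 100 in the first U2OS experiment, 4 in the second and 1 in the 293 cells, while none of 4 haematopoietic markers did in any. Of 8 embryonic kidney line markers, 4 did in the 293 cells, but also 7 and 5 in the U2OS experiments, so this list did not set the lines apart. Nothing says that the libraries of a group came from separate cultures, so p-values measure the spread between these libraries, which may be technical. Normalised reads are recovered reads divided by the library's size factor, and a base mean is their average over the libraries of a table. Levels of different genes are not compared, since transcript lengths were not used.

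The 250 bases before the annotated start site are shown for the members that differ most in their response, because they show where heat shock element letters stand. Sequences are RefSeq's on GRCh38.p14, 5′ to 3′ in the direction of the gene. Capitals mark GAANNTTC or TTCNNGAA, a pair of facing units. Each of these strings is its own reverse complement, so that both strands were searched.
HSPA1A, chr6:31815293-31815542, plus strand: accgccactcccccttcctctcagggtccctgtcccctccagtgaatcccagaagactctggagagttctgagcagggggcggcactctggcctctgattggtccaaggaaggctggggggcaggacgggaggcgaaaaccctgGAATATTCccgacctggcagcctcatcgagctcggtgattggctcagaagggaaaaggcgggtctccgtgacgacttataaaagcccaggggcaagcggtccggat
HSPA1B, chr6:31827488-31827737, plus strand: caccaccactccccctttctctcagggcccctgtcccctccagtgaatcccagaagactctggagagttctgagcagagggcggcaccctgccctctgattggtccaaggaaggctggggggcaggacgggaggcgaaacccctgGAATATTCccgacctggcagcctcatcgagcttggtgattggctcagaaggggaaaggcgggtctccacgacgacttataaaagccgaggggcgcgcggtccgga
HSPA6, chr1:161524290-161524539, plus strand: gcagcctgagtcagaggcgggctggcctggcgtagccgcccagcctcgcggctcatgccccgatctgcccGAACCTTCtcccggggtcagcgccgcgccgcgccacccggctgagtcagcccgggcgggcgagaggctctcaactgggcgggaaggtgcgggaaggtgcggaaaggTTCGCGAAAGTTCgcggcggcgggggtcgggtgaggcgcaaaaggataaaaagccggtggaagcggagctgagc
HSPA8, chr11:123062137-123062386, minus strand: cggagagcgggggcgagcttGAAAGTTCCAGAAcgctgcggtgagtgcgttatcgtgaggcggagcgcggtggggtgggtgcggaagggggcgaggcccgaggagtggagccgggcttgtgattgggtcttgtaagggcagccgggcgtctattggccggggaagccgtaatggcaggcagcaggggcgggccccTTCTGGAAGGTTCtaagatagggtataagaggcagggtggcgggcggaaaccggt
HSPH1, chr13:31162389-31162638, minus strand: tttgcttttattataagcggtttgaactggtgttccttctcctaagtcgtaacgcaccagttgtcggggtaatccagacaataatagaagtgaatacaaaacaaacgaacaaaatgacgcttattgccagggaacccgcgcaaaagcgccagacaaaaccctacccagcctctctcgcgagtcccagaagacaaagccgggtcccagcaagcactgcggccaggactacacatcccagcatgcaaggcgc
HSPA4, chr5:133051763-133052012, plus strand: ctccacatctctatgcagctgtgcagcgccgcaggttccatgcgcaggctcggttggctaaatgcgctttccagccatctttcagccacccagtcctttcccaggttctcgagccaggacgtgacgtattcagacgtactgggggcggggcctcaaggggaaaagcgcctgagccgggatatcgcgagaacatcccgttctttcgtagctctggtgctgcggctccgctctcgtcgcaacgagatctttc
HSPA1A and HSPA1B each held a single GAATATTC, starting at -106 and -105 from the start site. Their windows were identical at 235 of 251 aligned positions (93.6%). HSPA6 held 3 matches and HSPA8 held 4, and overlapping matches in these windows made the 3-unit strings GAANNTTCNNGAA or TTCNNGAANNTTC, once in HSPA6 and at 2 places in HSPA8. The windows of HSPH1, HSPA4 and HSPA2 held no match. HSPA1L lies head to head with HSPA1A, and its window held the same GAATATTC read from the other strand. Windows were found for 9 of the 10 symbols, with 3 start sites for HSPA4L of which 1 held a match; 6 symbols held the 2-unit string and 2 the 3-unit string. Among all 35116 promoter windows of this length, 11.6% held the 2-unit and 0.441% the 3-unit string. A match describes letters only.

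Arsenite raised HSPA1A, HSPA1B, HSPA6, HSPH1 and HSPA8 in all 3 backgrounds of the second experiment, steeply in the inducible genes and mildly in HSPA8. The exchange factor HSPA4 was not called in any of them. The authors' deposited tables called 7 of 9 tested members higher in knockout cells, where 8.56% of all tested genes were called higher. They called 7 of 9 in wild-type rescue (background 8.18%) and 5 of 8 in NTF2-deletion rescue (background 2.43%), and no member lower in any of these 3 (backgrounds 10.9%, 12.2% and 6.14%). Called means an adjusted p under 0.05. With Wald statistics divided by their own robust spread, 4 members were called in knockout cells. In bulk libraries a smaller share of cells with a transcript and less of it per cell cannot be told apart. Members without an adjusted p had base means too low for the authors' filter.

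HSPA1A had 495 and 589 normalised reads in the 2 untreated knockout libraries and 13542 and 10991 with arsenite. In wild-type rescue it went from 829 and 855 to 8385 and 9187. NTF2-deletion rescue had 827 and 850 without and 5240 and 5700 with arsenite. No treated library overlapped an untreated one, and the treated groups did not overlap each other: knockout was highest and NTF2-deletion rescue lowest. The ratios of mean normalised reads were 22.8-fold, 10.3-fold and 6.53-fold in knockout, wild-type rescue and NTF2-deletion rescue. On the log2 scale the authors' deposited tables gave 4.19 (SE 0.16, adjusted p 6.50e-140), 3.21 (SE 0.08, adjusted p listed as 0) and 2.55 (SE 0.07, adjusted p listed as 0).

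HSPA1B, which encodes a protein near-identical to that of HSPA1A, had 366 and 425 normalised reads in knockout cells and 13657 and 10325 with arsenite. It rose from 653 and 671 to 7898 and 8268 in wild-type rescue, and from 620 and 626 to 5099 and 5076 in NTF2-deletion rescue. The order of the treated groups was that of HSPA1A, again without overlap. The authors' deposited log2 fold changes were 4.45 (SE 0.19), 3.51 (SE 0.05) and 2.85 (SE 0.07) in these backgrounds, with adjusted p-values of 3.54e-120, listed as 0 and listed as 0 in the authors' deposited tables. Reads may be split between the 2 genes in a way the counting decides, so neither gene's own level is certain.

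HSPA6 was almost silent before treatment, with 0 and 4 reads in the untreated knockout libraries, which come to 0.0 and 5.0 normalised reads. With arsenite the knockout libraries held 1646 and 1006 normalised reads. Wild-type rescue went from 28.7 and 19.3 to 821 and 747, and NTF2-deletion rescue from 14.4 and 20.6 to 333 and 334. As for HSPA1A, every treated library was above every untreated one, and treated knockout cells were highest and treated NTF2-deletion rescue lowest; the 2 treated knockout libraries stood further apart than those of any other treated group. In summed reads scaled by depth, the increase in knockout cells was 571-fold, with a 95% interval of 223 to 2096 that covers counting error only. It was 32.5-fold (24.0 to 45.0) in wild-type rescue and 19.1-fold (13.5 to 28.0) in NTF2-deletion rescue.

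The authors' deposited tables place the HSPA6 response of knockout cells lowest instead of highest, with a log2 fold change of 0.92 in knockout cells (SE 0.27, adjusted p 0.00574), 3.80 in wild-type rescue (SE 0.15, adjusted p 7.94e-147) and 2.01 in NTF2-deletion rescue (SE 0.14, adjusted p 3.82e-45). The log2 ratios of the mean normalised reads were 9.07, 5.01 and 4.25 in the same backgrounds. The deposited fold changes are shrunk toward 0, by a prior whose width differs between tables. The gap between the deposited value and the ratio of means was wider for HSPA6 in knockout cells than for any other member in the plot of both measures. A limma-voom fit on the recovered reads, chosen after the data were seen, gave 9.51 (SE 1.01, adjusted p 1.18e-10) in knockout cells. HSPA6 is also close in sequence to the pseudogene HSPA7, with which reads could be shared.

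**Figure D1:**
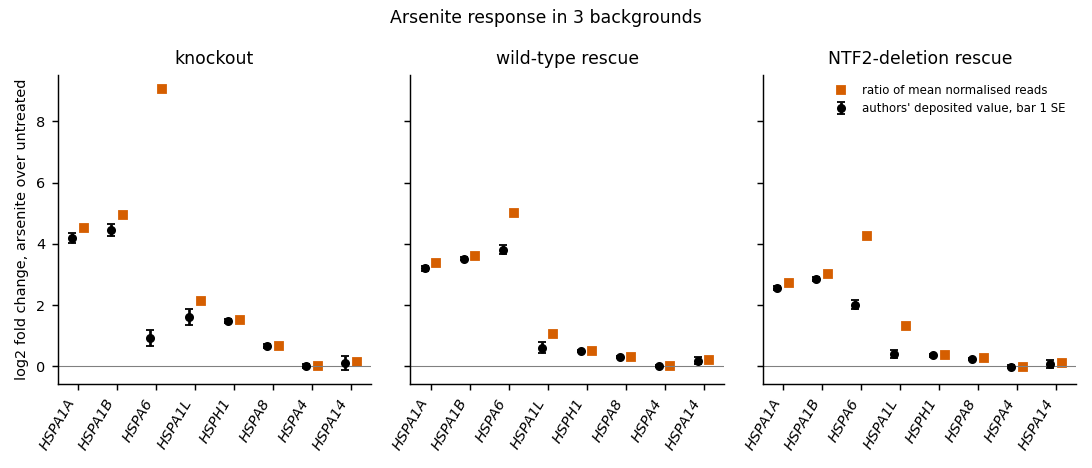
Log2 fold change of arsenite over untreated for 8 members (horizontal axis) in knockout cells, wild-type rescue and NTF2-deletion rescue: black points are the authors' deposited values with bars of 1 SE, orange squares the log2 ratios of mean normalised reads of 2 libraries per group. Both measures lie close together for HSPH1, HSPA8, HSPA4 and HSPA14, and far apart for HSPA6 in knockout cells, at 0.92 and 9.07.

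HSPH1, the stress-responsive HSP110, rose from 3004 and 2974 normalised reads to 8723 and 8117 in knockout cells. It went from 5864 and 5845 to 8390 and 8404 in wild-type rescue and from 5746 and 5799 to 7394 and 7491 in NTF2-deletion rescue. Knockout cells started lowest and ended level with wild-type rescue, whose treated libraries lay between the 2 treated knockout libraries. The authors' deposited tables gave log2 fold changes of 1.49 (SE 0.07, adjusted p 2.26e-112), 0.50 (SE 0.03, adjusted p 2.00e-44) and 0.36 (SE 0.04, adjusted p 3.21e-14) in knockout, wild-type rescue and NTF2-deletion rescue.

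HSPA8 stood at 9616 and 10311 normalised reads in knockout cells and at 15808 and 15599 with arsenite. It went from 26173 and 25006 to 32391 and 32121 in wild-type rescue, and from 26710 and 25143 to 31306 and 30687 in NTF2-deletion rescue. Treated knockout cells therefore stayed below every rescued library, treated or not. The authors' deposited log2 fold changes were 0.67 (SE 0.06, adjusted p 3.44e-30), 0.31 (SE 0.03, adjusted p 5.72e-21) and 0.25 (SE 0.04, adjusted p 2.05e-10) in the 3 backgrounds.

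HSPA1L rose from 34.2 and 33.8 to 160 and 133 normalised reads in knockout cells, with 1.61 in the authors' deposited table (SE 0.27, adjusted p 4.82e-08). In wild-type rescue it went from 36.4 and 32.9 to 73.4 and 71.9 (0.61 with SE 0.18 and adjusted p 0.00635, by the authors' deposited table). NTF2-deletion rescue had 27.7 and 30.4 without and 75.9 and 69.5 with arsenite, without an adjusted p in the authors' deposited table; limma-voom on the recovered reads gave 1.31 (SE 0.27, adjusted p 0.000494). HSPA1L starts next to HSPA1A on the other strand, and it is not stated whether counting used the strand, so that reads of HSPA1A may be mixed with its own.

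HSPA4, an HSP110 exchange factor that is made constitutively, had 4128 and 4347 normalised reads in untreated and 4173 and 4211 in treated knockout cells. The rescued libraries held 8259 to 8826 untreated and 8391 to 8672 treated. The authors' deposited tables gave 0.00 (SE 0.07), 0.01 (SE 0.03) and -0.01 (SE 0.04) for the arsenite responses, none of them called (adjusted p 0.996, 0.847 and 0.971). HSPA14 was not called either, with 0.12, 0.18 and 0.08 in the authors' deposited tables. The MSANTD7 entry rose by 0.55 and 0.37 in knockout cells and wild-type rescue (adjusted p 0.00418 and 4.07e-05), and had 0.25 in NTF2-deletion rescue (adjusted p 0.110), in the authors' deposited tables. HSPA2 had 2 to 10 reads in every library of the second experiment and HSPA4L at most 2, so that a change in either was not detectable at this depth.

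**Figure D2:**
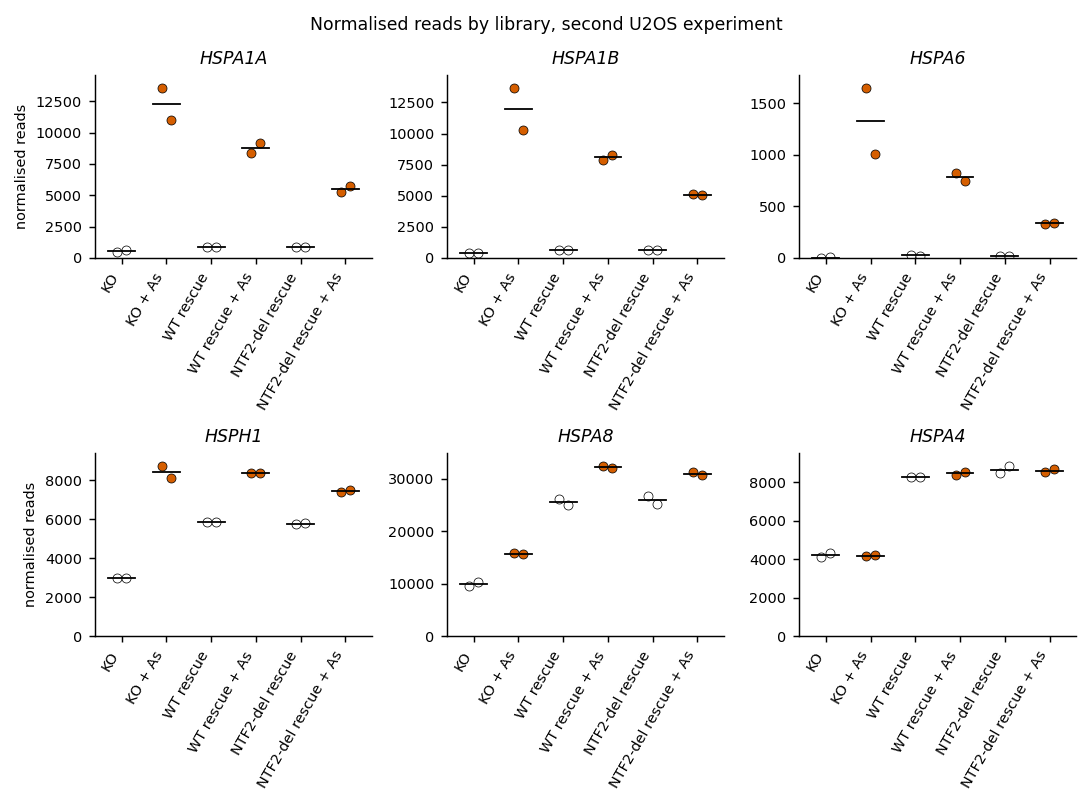
Normalised reads (vertical axis, from 0) of 6 members in each library of the second U2OS experiment: knockout (KO), wild-type rescue and NTF2-deletion rescue, untreated (white) or with arsenite (orange, + As); points are libraries and lines the means of 2. HSPA1A, HSPA1B and HSPA6 step down from treated knockout to treated NTF2-deletion rescue (HSPA1A 12266, 8786 and 5470 on average). HSPA4 is higher in rescued (transfected) than in knockout (untransfected) cells, with or without arsenite.

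Next, the 3 responses to arsenite were set against each other. Those of 5 members were smaller in wild-type rescue than in knockout cells, and the same 5 were smaller in NTF2-deletion rescue: HSPA1A, HSPA1B, HSPA1L, HSPA8 and HSPH1. The test divides the difference of the deposited log2 fold changes by their joint error and adjusts over all genes (Benjamini-Hochberg). It called 5 of 9 tested members smaller and 1 larger in wild-type rescue, with backgrounds of 2.68% and 1.82%, and 5 smaller and 1 larger in NTF2-deletion rescue, with backgrounds of 3.08% and 4.04%. The 1 larger response was HSPA6 in both.

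For HSPA1A the response differed by -0.98 between wild-type rescue and knockout (SE 0.18, adjusted p 6.79e-06) and by -1.64 between NTF2-deletion rescue and knockout (SE 0.18, adjusted p 4.04e-18). HSPA1B differed by -0.94 (SE 0.20, adjusted p 0.000134) and -1.60 (SE 0.20, adjusted p 1.83e-13). HSPH1 differed by -0.99 (SE 0.07, adjusted p 2.33e-38) and -1.13 (SE 0.08, adjusted p 1.08e-44). All 3 genes started lower in knockout cells, and whether the starting level bears on the response was not tested. HSPA8 differed by less, -0.35 (SE 0.06, adjusted p 5.17e-06) and -0.41 (SE 0.07, adjusted p 5.83e-08). HSPA1L differed by -1.001 (adjusted p 0.0475) and -1.21 (adjusted p 0.00165), and neither was called by limma-voom on the recovered reads (adjusted p 0.0507 and 0.175).

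With limma-voom on the recovered reads, 5 members had a smaller and 0 a larger response in each rescue than in knockout cells, with backgrounds of 4.56% smaller and 6.07% larger for wild-type rescue and 5.84% and 7.81% for NTF2-deletion rescue. HSPA1L dropped out of the smaller ones, and HSPA6 joined them.

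The sign for HSPA6 depended on the measure. Deposited values gave 2.88 for wild-type rescue minus knockout (SE 0.31, adjusted p 3.44e-18) and 1.09 for NTF2-deletion rescue minus knockout (SE 0.31, adjusted p 0.00820). Ratios of mean normalised reads gave -4.06 and -4.82. The limma-voom contrast on the recovered reads gave -4.49 (SE 1.10, adjusted p 0.00438) and -5.28 (SE 1.13, adjusted p 0.000624). Both rest on the 4 reads of the untreated knockout libraries; without the library that held 0 reads, the limma-voom values were -2.82 (adjusted p 0.109) and -3.60 (adjusted p 0.0280).

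Between the 2 rescues, 3 of 9 tested members responded more strongly with wild-type G3BP1 and none less, where 0.101% of all genes were called higher and 0.227% lower. HSPA1A differed by 0.66 (SE 0.10, adjusted p 1.93e-07), HSPA1B by 0.66 (SE 0.08, adjusted p 1.94e-11) and HSPA6 by 1.79 (SE 0.20, adjusted p 2.31e-15). The limma-voom contrast (backgrounds 0.018% higher and 0.102% lower) called 1 member, HSPA1A, at 0.67 (SE 0.12, adjusted p 0.00352), but neither HSPA1B, at 0.58 (SE 0.14, adjusted p 0.105), nor HSPA6, at 0.79 (SE 0.67, adjusted p 0.879). HSPH1 differed by 0.14 (SE 0.06, adjusted p 0.713) and HSPA8 by 0.06 (SE 0.05), and neither was called. The limma-voom call for HSPA1A was lost (adjusted p 0.0547 to 0.109) when any one of 4 libraries was left out: either untreated wild-type rescue library, the untreated NTF2-deletion rescue library with 850 normalised reads, or the treated one with 5240.

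Levels under arsenite were compared through the tables that set each treated rescue, and treated knockout cells, against the same untreated knockout libraries. HSPA1A was higher in treated wild-type rescue than in treated NTF2-deletion rescue by 0.71 (SE 0.12, adjusted p 1.45e-05), and HSPA1B by 0.69 (SE 0.12, adjusted p 2.37e-05). These were the 2 of 9 tested members called higher, where 0.0483% of all genes were, and none was called lower (0.0302%). The direct limma-voom contrast on the treated libraries called 4 higher and 0 lower (backgrounds 2.02% and 1.2%). It gave 0.67 for HSPA1A (SE 0.06, adjusted p 9.37e-12), 0.66 for HSPA1B (SE 0.06, adjusted p 2.67e-10), 1.24 for HSPA6 (SE 0.14, adjusted p 2.54e-08) and 0.17 for HSPH1 (SE 0.04, adjusted p 0.00469). The HSPH1 call was lost without any one of the 4 treated rescue libraries (adjusted p 0.0557 to 0.151), and the difference test gave 0.20 (SE 0.08) with no call.

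Against treated knockout cells, 5 of 9 tested members were higher in treated wild-type rescue (background 26.1%) and none lower (19.3%). In treated NTF2-deletion rescue 5 were higher (24.3%) and 2 lower (19.2%). HSPA4, HSPA8, HSPA14 and the MSANTD7 entry were higher in both, with HSPA8 at 1.09 (SE 0.07, adjusted p 1.28e-49) and 1.01 (SE 0.07, adjusted p 7.69e-41). HSPA1A was lower in treated NTF2-deletion rescue by -0.83 (SE 0.19, adjusted p 4.66e-05) and HSPA1B by -0.74 (SE 0.21, adjusted p 0.00139). In wild-type rescue HSPA1A had -0.12 (adjusted p 0.652) by this test, but the direct limma-voom contrast, which does not pass through shrunken values, gave -0.52 (SE 0.05, adjusted p 2.73e-12), and -0.60 for HSPA1B (SE 0.06, adjusted p 6.70e-13). By limma-voom, 4 members were higher and 4 lower in treated wild-type rescue (backgrounds 35.7% and 35.6%), and 4 higher and 5 lower in treated NTF2-deletion rescue (34.5% and 34.3%). HSPA6 was called higher from the deposited values, by 6.17 and 4.92, and lower by the limma-voom contrast, by -0.75 (SE 0.10, adjusted p 1.74e-08) and -1.98 (SE 0.14, adjusted p 4.69e-17); the libraries themselves, 1646 and 1006 against 821 and 747 and 333 and 334, did not overlap.

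Without arsenite, the constitutive members and HSPH1 were higher in both rescues than in knockout cells, by similar folds. HSPA8 was 2.61-fold and 2.64-fold higher in wild-type and NTF2-deletion rescue, HSPA4 1.98-fold and 2.07-fold, HSPH1 1.99-fold and 1.96-fold and HSPA14 2.14-fold and 2.25-fold, as ratios of mean normalised reads. The authors' deposited tables called 8 of 10 tested members higher in each rescue (backgrounds 23% and 22.8%) and none lower (19.1% and 18.7%). Over every gene whose base mean reached 100, the median was 0.18 and 0.17 here, and 0.22 and 0.19 for the treated rescues over knockout. The folds and log2 values given here were not centred on it. With Wald statistics divided by their robust spread, 3 and 2 members were called in the untreated rescues. HSPA8, HSPA4, HSPH1 and HSPA14 lay above that median in both rescues, so centring on it could not change their direction.

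HSPA8 had 1.38 (SE 0.05, adjusted p 1.41e-191) and 1.40 (SE 0.05, adjusted p 6.92e-146) by the authors' deposited tables. HSPH1 had 0.99 (SE 0.06, adjusted p 9.06e-64) and 0.97 (SE 0.06, adjusted p 2.17e-54), and HSPA4 0.98 (SE 0.05, adjusted p 1.21e-74) and 1.05 (SE 0.06, adjusted p 1.97e-72), in the authors' deposited tables. HSPA14, with 134 and 130 normalised reads in knockout cells and 261 to 318 in the 4 rescued libraries, had 1.06 (SE 0.22) and 1.13 (SE 0.22) in the authors' deposited tables. The inducible HSPA1A and HSPA1B were higher by less, 0.65 and 0.75 in wild-type and 0.64 and 0.67 in NTF2-deletion rescue, in the authors' deposited tables. HSPA6 had 1.82 (SE 0.60, adjusted p 0.00708) and 1.43 (SE 0.60, adjusted p 0.0433) in the authors' deposited tables, from 4 reads in knockout cells against 43 and 33 in the rescues. The folds of summed reads were 10.4 (95% counting interval 3.78 to 39.9) and 7.54 (2.68 to 29.3). Without the knockout library that held 0 reads, limma-voom gave 2.07 (adjusted p 0.109) and 1.62 (adjusted p 0.224).

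Before arsenite, no member was called between the 2 rescues, although libraries did not overlap for HSPA1B (653 and 671 against 620 and 626 normalised reads), HSPH1 (5864 and 5845 against 5746 and 5799) and HSPA1L (36.4 and 32.9 against 27.7 and 30.4). The difference test called none of 8 tested members, with none at an unadjusted p under 0.05, where 0% of all genes were called higher and 0.0185% lower. Both tables of this test share the untreated knockout libraries, so its summed error is too large and the test is conservative. By limma-voom on the recovered reads, 0 members were called, with backgrounds of 0.76% higher and 0.311% lower. HSPA8 differed by -0.02 (SE 0.07), HSPH1 by 0.02 (SE 0.08) and HSPA1A by 0.00 (SE 0.19) between wild-type and NTF2-deletion rescue. Against untreated knockout cells, 9 of 10 tested members were called higher in each treated rescue in the authors' deposited tables (backgrounds 25.1% and 23.3%), and none lower (19.8% and 19.6%). Those tables share the knockout libraries with the ones above.

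Other genes of the chaperone cycle were described from 4 lists. Of 13 J-domain co-chaperones, arsenite raised 7 and lowered 1 in knockout cells, 9 and 0 in wild-type rescue and 5 and 0 in NTF2-deletion rescue. Their median log2 fold changes were 0.54, 0.25 and 0.19, where those of all tested genes were 0.00, 0.01 and 0.01. For these and the next lists the shares of all genes called higher and lower were 8.56% and 10.9% in knockout cells, 8.18% and 12.2% in wild-type rescue and 2.43% and 6.14% in NTF2-deletion rescue. DNAJB1, which delivers substrates to HSP70, had 3.34 (SE 0.08), 2.13 (SE 0.04) and 1.74 (SE 0.05) in these backgrounds in the authors' deposited tables. DNAJA4 had 3.12 (SE 0.13), 1.34 (SE 0.09) and 0.79 (SE 0.11) in the authors' deposited tables, and the mitochondrial DNAJA3 fell by 0.33 in knockout cells in the authors' deposited table (adjusted p 0.0237).

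Of 13 exchange factors and other partners, 2 rose and 1 fell in knockout cells, 5 and 1 in wild-type rescue and 2 and 0 in NTF2-deletion rescue. Their medians were 0.05, 0.15 and 0.09. The HSP90 co-chaperone CHORDC1 had 1.59, 0.88 and 0.63, and the HSP70 exchange factor BAG3 had 1.44, 0.62 and 0.55, by the authors' deposited tables. BAG6 fell by 0.22 in knockout cells and by 0.14 in wild-type rescue in the authors' deposited tables. The 12 heat shock factors and other heat shock proteins had 7 that rose and 0 that fell in knockout cells, 5 and 2 in wild-type rescue, and 2 and 1 of 11 tested in NTF2-deletion rescue. HSPE1, the mitochondrial co-chaperonin, had 1.49, 0.95 and 0.46, and HSP90AA1, the inducible cytosolic HSP90, had 1.00, 0.50 and 0.31, in the authors' deposited tables. SERPINH1, the collagen chaperone, fell by 0.22 and 0.19 in wild-type and NTF2-deletion rescue in the authors' deposited tables. HSF1 transcripts were not called in any of the 3 responses (adjusted p 0.659, 0.498 and 0.779 in the authors' deposited tables).

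Of 5 tested HSP70 relatives of other compartments, 1 rose and 3 fell with arsenite in knockout cells, 2 and 3 in wild-type rescue and 0 and 1 in NTF2-deletion rescue. Their medians were -0.33, -0.14 and -0.03. HYOU1, the HSP110 relative of the endoplasmic reticulum, fell by 0.72, 0.39 and 0.27 in the authors' deposited tables, and HSPA13, a microsomal relative, fell by 0.69 and 0.42 in knockout cells and wild-type rescue in the authors' deposited tables. HSPA12A rose by 0.35 and 0.25 in knockout cells and wild-type rescue in the authors' deposited tables. Without arsenite, HSPA5 and the mitochondrial HSPA9 were higher in both rescues, HSPA5 by 0.95 and 0.88 and HSPA9 by 0.96 and 0.95, in the authors' deposited tables. The same tables called 11 J-domain genes higher and 1 lower in each rescue, and 12 and 13 of 13 partners higher with none lower, where 23% and 22.8% of all genes were called higher and 19.1% and 18.7% lower. DNAJC2, a ribosome-associated J-domain protein, had 1.48 and 1.32, and BAG3 had 1.19 and 1.10, according to the authors' deposited tables. Of the 12 heat shock factors and proteins, 6 were higher and 4 lower in wild-type rescue and 6 and 3 in NTF2-deletion rescue. The chaperonin HSPD1 had 1.10 and 1.19, while the small heat shock proteins CRYAB and HSPB1 were lower, CRYAB by -2.58 and -2.22 and HSPB1 by -0.88 and -0.75, according to the authors' deposited tables.

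Genes with the pattern most like a member were sought among 10049 genes by the Euclidean distance of the deposited log2 fold changes over the 7 tables of the second experiment, which share libraries. HSPA1A was nearest to DNAJB1 (distance 2.03), EGR1 (2.23) and MT1E (2.30), all farther than HSPA1B (0.706). HSPH1 was nearest to TIPARP (0.428), OSER1 (0.443) and ZBTB21 (0.446). HSPA8 was nearest to NFKBIB (0.181), FAM83G (0.189) and MIR100HG (0.194).

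In the first experiment, cells of the knockout had more HSPA1A and HSPA1B than wild-type cells and less HSPA8, HSPA4, HSPA6 and HSPA14. The authors' deposited table called 2 of 10 tested members higher (background 18.4%) and 5 lower (19.4%) in knockout than in wild type. Against G3BP1 rescue, 5 were lower in knockout cells (21.5%) and none higher (16.1%), and against G3BP1 rescue wild type had 5 lower (20.4%) and none higher (15.2%). The 3 tables share libraries in pairs. With the Wald statistics of each table divided by their own robust spread, 0, 2 and 0 members were called in these 3 tables.

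HSPA1A had 2448 and 2471 normalised reads in wild type, 3356 and 3086 in knockout and 3270 and 3610 in G3BP1 rescue. Wild type lay below the others, which overlapped. Knockout against wild type was 0.38 in the authors' deposited table (SE 0.07, adjusted p 1.61e-06). Knockout against rescue was -0.10 in the authors' deposited table (SE 0.07) and not called (adjusted p 0.272). HSPA1B, with 1812 and 1719, 2690 and 2475, and 2675 and 2930, had 0.54 (SE 0.08, adjusted p 4.70e-10) and -0.13 (SE 0.08, adjusted p 0.187) in the authors' deposited tables. Wild type against rescue was -0.50 for HSPA1A (SE 0.07, adjusted p 2.37e-11) and -0.68 for HSPA1B (SE 0.08, adjusted p 3.73e-17) by the authors' deposited table.

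HSPA8 had 76256 and 71456 normalised reads in wild type, 60605 and 59736 in knockout and 87308 and 87942 in rescue, 3 groups without overlap and with knockout lowest. The authors' deposited tables gave -0.30 for knockout against wild type (SE 0.05, adjusted p 2.80e-10) and -0.55 for knockout against rescue (SE 0.03, adjusted p 2.70e-55). HSPA4 had the same order, at 25186 and 24320, 18888 and 17895, and 27281 and 28742. Its values in the authors' deposited tables were -0.43 (SE 0.05, adjusted p 4.71e-18) and -0.62 (SE 0.04, adjusted p 2.14e-41). HSPA14 went from 862 and 853 in wild type to 501 and 524 in knockout and 1002 and 1005 in rescue (-0.73 with adjusted p 3.95e-08 and -0.95 with adjusted p 1.34e-15 by the authors' deposited tables).

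HSPA6 was counted before any treatment in these cells, with 66 and 50 reads in wild type, 29 and 21 in knockout and 52 and 55 in rescue. Knockout against wild type was -0.96 in the authors' deposited table (SE 0.39, adjusted p 0.0350), and knockout against rescue -0.64 (SE 0.32, adjusted p 0.105). HSPH1 had 13814 and 13650 in wild type, 14695 and 14011 in knockout and 16449 and 17708 in rescue. It was not called between knockout and wild type (0.06, SE 0.05, adjusted p 0.383) and was lower than in rescue in both (-0.26 and -0.33, adjusted p 4.76e-07 and 1.41e-11), in the authors' deposited tables. HSPA4L had 0 reads in both knockout libraries, 3 and 5 in wild type and 4 and 3 in rescue, too few for a call.

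**Figure D3:**
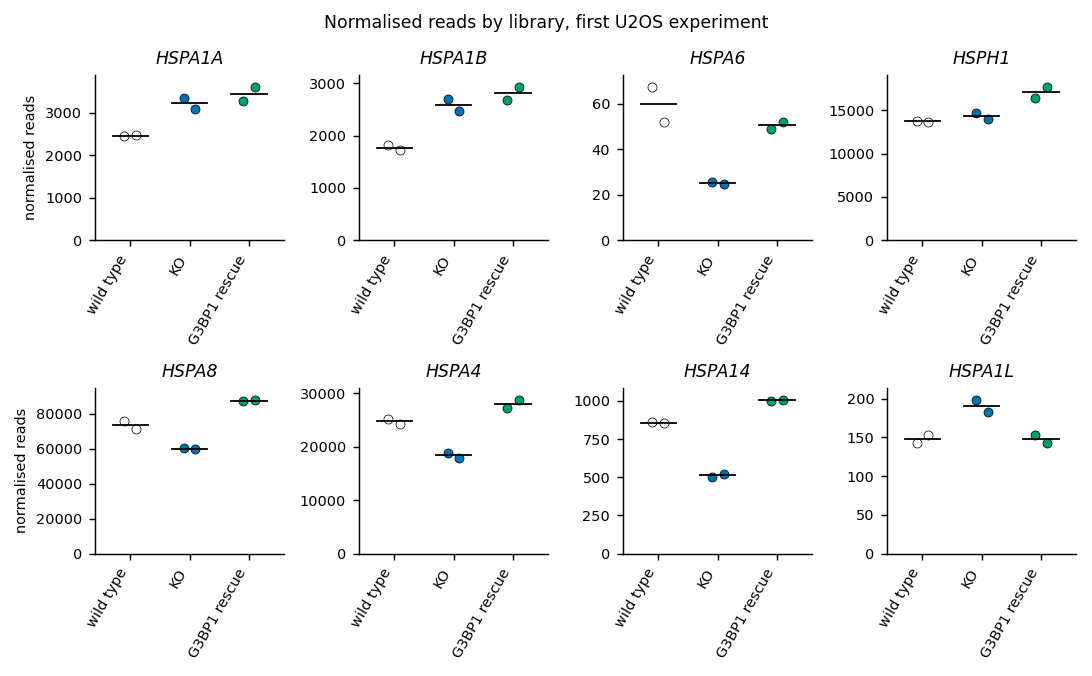
Normalised reads (vertical axis, from 0) of 8 members in each library of the first U2OS experiment: wild type (white), knockout (KO, blue) and G3BP1 rescue (green); points are libraries and lines the means of 2. HSPA8, HSPA4 and HSPA14 are lowest in knockout, whereas HSPA1A and HSPA1B are lowest in wild type.

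RIP asked which transcripts come down with FLAG-G3BP1. HSPA14, the MSANTD7 entry and the HSP110 gene HSPA4 were higher in IP than input. The inducible HSPA1B and the other HSP110 genes, HSPH1 and HSPA4L, were lower, and HSPA8 was not called. Of 11 tested members the authors' deposited table called 3 higher (background 24.7%) and 3 lower (31.4%), both near the shares of all genes. With its Wald statistics divided by their robust spread, 0 were called. HSPA14 had 1.81 on the log2 scale (SE 0.17, adjusted p 6.41e-27), from mean normalised reads of 526 in input and 1843 in IP worked out from the authors' deposited table. The MSANTD7 entry had 0.58 (SE 0.11, adjusted p 1.55e-06) and HSPA4 0.41 (SE 0.11, adjusted p 0.000360) by the authors' deposited table. HSPH1 had -1.23 (SE 0.14, adjusted p 1.79e-18), HSPA4L -0.98 (SE 0.12, adjusted p 9.67e-16) and HSPA1B -1.46 (SE 0.41, adjusted p 0.000942) by the authors' deposited table. HSPA1B had the largest standard error of the 6 called members. HSPA8 had 0.22 (SE 0.18, adjusted p 0.281) by the authors' deposited table.

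The 293 cells counted HSPA1B at a base mean of 6302 but HSPA1A at 0.960, or 1 read in all IP and 5 in all input libraries, whereas both genes were well counted in every U2OS library. HSPA1L had 6 and 2 reads and HSPA6 5 and 7. How reads were assigned between the near-identical HSPA1A and HSPA1B is not given, so the HSPA1B entry may hold reads of both. HSPA4L, at most 5 reads per library in U2OS cells, had a base mean of 972 in the 293 cells. Of the J-domain list 10 of 12 tested were called higher in IP and 1 lower, against 24.7% and 31.4% of all genes. Among those with base means of at least 100, DNAJA2 had 1.19, DNAJC8 1.02 and DNAJC6 -1.32 in the authors' deposited table. Of the partners 9 of 13 were higher and 3 lower, with ST13 at 1.70 and STUB1 at 1.56 in the authors' deposited table. Of the heat shock proteins 5 of 11 tested were higher and 1 lower, with HSBP1 at 1.43 in the authors' deposited table. Of the relatives from other compartments 1 of 5 was higher and 2 lower, HSPA12A at -1.99 and HYOU1 at -1.44 in the authors' deposited table. Over every gene whose base mean reached 100 the median was 0.12 here.

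**Figure D4:**
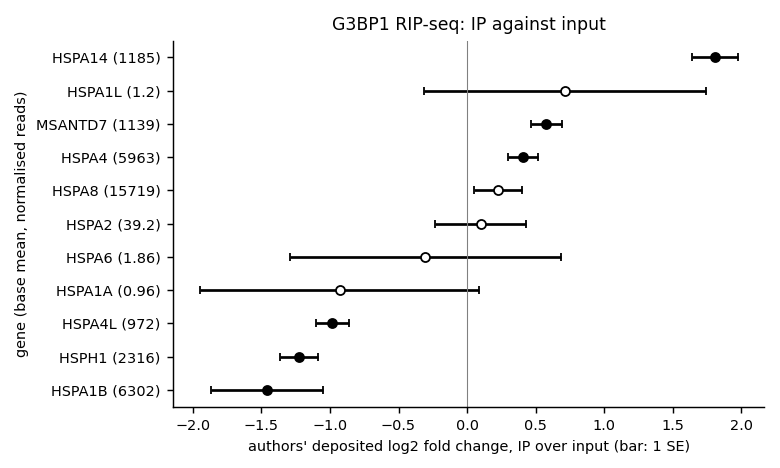
The authors' deposited log2 fold change of IP over input (horizontal axis, bars of 1 SE) for the 11 entries, ordered by value, with base means in brackets; filled points were called at an adjusted p under 0.05. HSPA14 stands highest at 1.81 and HSPA1B lowest at -1.46, and the wide bars belong to entries with base means under 2.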

How the data were processed

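Poly-A RNA was made into directional libraries, per the labels' protocols. The authors used STAR and DESeq2 (2.11.40.6), per the submitters' processing notes; genome build, annotation and use of strand in counting are not given in the sources used here. The authors deposited 11 DESeq2 tables. In each, the authors deposited a base mean, a signal in normalised reads averaged over both groups. They also deposited a log2 fold change, the group named first over the second, with its error. The authors' Wald statistic, a score, and its p-value and adjusted p-value follow. Shrinkage of the deposited fold changes toward 0 was read from the values: the prior width, taken as 2 times the largest standard error of a table, ran from 0.278 to 2.06 on the log2 scale. Another 4 summary lines per table were removed.

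A base mean is a sum of whole reads over size factors. Whole reads per library were recovered by lattice reduction to a relative tolerance of 1e-14 and divided by size factors, which matched the tables' own within 0.0221%. In simulations on 600 genes per experiment all reads were recovered. The 3 libraries per RIP group were not resolved, except for low genes. The recovered libraries carry no replicate numbers, and the labels name no batch. Another 48 libraries were not analysed here.

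Calls are the authors' at an adjusted p under 0.05. For 7 differences, the difference of deposited values over the root of the summed squared errors was tested against a normal distribution, two-sided, over genes with base means of at least 10 in both tables (Benjamini-Hochberg); tested on simulated data, it recovered 72% of 200 genes changed by 1 on the log2 scale for wild-type rescue minus knockout over 15648 genes, with 7.10% false calls, but 50% for the untreated and 49.5% for the treated level of wild-type minus NTF2-deletion rescue. Whether these shares hold for fold changes shrunk by priors of different width, as in the deposited tables, was not tested. The simulation also drew the errors of both tables independently. In the level differences both tables share the untreated knockout libraries, so the summed error is too large and the test is conservative. The simulated shares need not hold there. limma-voom (limma 3.58.1) on recovered reads, for genes with a mean of at least 10 reads, was added after the data were seen. Named genes are all members, the 2 highest and 2 lowest called genes per list with base means of at least 100, and the 3 nearest genes; HSF1 was added after its values were seen. The members and lists were chosen with earlier results of these data known. Alternatives were a stricter threshold, centring, Wald statistics divided by their spread, other filters, a minimum change, shrinkage undone, ratios of means and leaving out each library.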

Additional observations from a re-analysis of the deposited data

Results flagged for a closer look

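The arsenite response of 6 members differed between backgrounds by the difference test on deposited log2 fold changes (Benjamini-Hochberg over all genes tested). Between wild-type rescue and knockout the values were -0.98 for HSPA1A, -0.94 for HSPA1B, -1.001 for HSPA1L, -0.35 for HSPA8 and -0.99 for HSPH1, all smaller in the rescue, and 2.88 for HSPA6. Between NTF2-deletion rescue and knockout they were -1.64 for HSPA1A, -1.60 for HSPA1B, -1.21 for HSPA1L, -0.41 for HSPA8, -1.13 for HSPH1 and 1.09 for HSPA6. Between the 2 rescues they were 0.66 for HSPA1A, 0.66 for HSPA1B and 1.79 for HSPA6, larger with wild-type G3BP1. For HSPA6 the ratios of means gave 0.76 there, and limma-voom called HSPA1A but neither HSPA1B nor HSPA6. The HSPA6 values against knockout took the opposite sign on recovered reads. Groups of 2 or 3 libraries were too small for a check of single outlying libraries.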

How the results depend on the processing

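No paired analysis was possible because the recovered libraries carry no replicate numbers and the tables hold no values per replicate, so the planned replicate block could not be fitted. HSPA6 took the opposite sign on recovered reads in 4 differences, and the cause was not tested. The arsenite response of wild-type rescue minus knockout, 2.88 from deposited values, was -4.06 by ratios of means and -4.49 by limma-voom, with -6.17 to -2.82 when each library was left out; that of NTF2-deletion rescue minus knockout, 1.09, was -4.82 and -5.28, with -6.95 to -3.60. The treated level of wild-type rescue minus knockout, 6.17, was -0.72 and -0.75 (-1.10 to -0.33), and that of NTF2-deletion rescue minus knockout, 4.92, was -1.98 and -1.98 (-2.34 to -1.59). Wald statistics divided by their robust spread left 0 called members of 6 in RIP, 0 of 7 in knockout against wild type, 2 of 5 in knockout against G3BP1 rescue, 0 of 5 in wild type against G3BP1 rescue, 3 and 2 of 8 in untreated wild-type and NTF2-deletion rescue, 4 of 7 in knockout cells with arsenite, and 5 and 5 of 9 in the treated rescues against knockout. A deposited log2 fold change of at least 1 left 3 in RIP, 0 in each table of the first experiment, and 4 and 5 in the untreated rescues. It left 4, 3 and 3 in the arsenite responses of knockout, wild-type rescue and NTF2-deletion rescue. Because this filter used the shrunken values, it dropped HSPA6 in knockout cells, at 0.92 deposited but 9.07 by the ratio of means. limma-voom called 1 member, against 3, in the response of wild-type minus NTF2-deletion rescue. With each of the 12 libraries left out in turn, HSPA1A ran from 0.61 to 0.74 there. HSPA1B ran from 0.55 to 0.61 and HSPA6 from 0.51 to 1.07. A lone library is then assumed to vary like the other groups. In the treated level of wild-type minus NTF2-deletion rescue limma-voom called 4 against 2. HSPH1 ran from 0.16 to 0.18 there over the same 12 fits. For the treated level of wild-type rescue minus knockout it called 8 against 5. Other counts stayed within 1.5 times: 154 of 187 alternative counts did so. Values for HSPA6 in untreated knockout cells rest on 4 reads, and the depth allows no statement on HSPA2 or, in U2OS cells, HSPA4L.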

Other observations

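HSPA1B took a larger share of the reads of the HSPA1A and HSPA1B pair in every arsenite-treated library than in any untreated one of the second experiment. The share ran from 41.9% to 44.0% in the 6 untreated and from 47.1% to 50.2% in the 6 treated libraries, a mean difference of 5.54 percentage points. No test is given, since the comparison was chosen because the libraries did not overlap. Exact binomial 95% intervals of the shares, which cover counting error only, were widest at 39.1% to 46.0% in an untreated knockout library and narrowest at 47.9% to 49.1% in a treated wild-type rescue library. The 6 untreated libraries of the first experiment had 41.0% to 45.0%. The summed level of both genes was also higher in every treated library of the second experiment than in any untreated one. Its part in the result was not tested. This comparison was chosen after the data were seen, and how the counting assigns reads between these near-identical genes is not given in the sources used here.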
